A study of Mus musculus with 18 samples.

Results

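Secreted antagonists of Wnt signalling were described here by 7 genes, Sfrp1, Sfrp2, Sfrp4, Frzb, Dkk2, Dkk3 and Wif1, out of 22180 named genes on the array. Members were the probe sets that the probe annotation assigns to one of these symbols, and where a gene had more than 1 (Sfrp2, with 2) the brightest of them on average was used. All 7 were on the array. Frzb was too dim to be tested, so that 6 of 7 entered the tests.

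RNA came from cells that flow cytometry had separated after collagenase B and Dispase II digestion, and it was amplified before hybridisation. Every mouse carried 1 copy of aP2-Cre, in which the Fabp4 (aP2) promoter drives Cre recombinase and is known to be active in fat and endothelial cells, and a tdTomato reporter that Cre switches on for good, so Tom+ cells or their ancestors had Cre activity. Normal sternocleidomastoid, a neck muscle, of day 21 mice (strain B6;SJL, genotype aP2-Cre/+;tdTomato/+, written tdTomato for Tom+ repeat 1) gave Tom+ and Tom- cells, with 3 arrays each. Tumors (strain BJ;SJL;B6.129) came from mice that additionally carried SmoM2/+, a Smoothened variant that keeps hedgehog signalling switched on, and gave Tom-/Pecam1-, Tom+/Pecam1- and Tom+/Pecam1+ cells, with 4 arrays each. Tumor repeats 1 to 3 were from day 48 and repeat 4 from day 38. The muscle cells were not sorted on Pecam1, an adhesion molecule of endothelium and leukocytes. The series title concerns the cell of origin of hedgehog-driven rhabdomyosarcoma, and tissue, age, strain and SmoM2 differ together between tumor and muscle and cannot be told apart.

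Wnt proteins signal through Frizzled receptors, and the branch that stabilises beta-catenin also needs the coreceptors Lrp5 and Lrp6. Secreted frizzled-related proteins (Sfrp1, Sfrp2, Sfrp4 and Frzb) and Wif1 bind Wnt proteins outside the cell, whereas Dkk2 binds Lrp5 and Lrp6. Dkk3 is a divergent relative of the Dickkopf family whose action on Wnt signalling is less settled. In muscle, Wnt signals take part in the differentiation of precursor cells and in the matrix production of connective tissue cells.

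Promoter sequences were found in the RefSeq table (GRCm38.p6) for 4 of the 7 members, Frzb, Sfrp2, Dkk2 and Wif1, and those of 3 members with unlike patterns are shown. They are Wif1, highest in Tom+/Pecam1- tumor cells, Sfrp2, highest in Tom-/Pecam1- tumor cells, and Dkk2, the member whose level in Tom+/Pecam1+ tumor cells was near that of Tom+/Pecam1- cells. Each run is the 250 bases directly before the annotated start, 5′ to 3′ on the gene's strand, all 3 on the plus strand, with matches to the searched motifs in capitals. The Wif1 run is chr10:121033754-121034003, the Sfrp2 run chr3:83766071-83766320 and the Dkk2 run chr3:132085042-132085291.
Wif1: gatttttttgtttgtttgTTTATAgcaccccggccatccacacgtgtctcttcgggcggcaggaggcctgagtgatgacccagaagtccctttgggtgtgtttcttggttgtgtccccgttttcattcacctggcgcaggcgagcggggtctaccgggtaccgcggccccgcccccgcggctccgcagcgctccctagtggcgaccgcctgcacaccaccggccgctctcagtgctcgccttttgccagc
Sfrp2: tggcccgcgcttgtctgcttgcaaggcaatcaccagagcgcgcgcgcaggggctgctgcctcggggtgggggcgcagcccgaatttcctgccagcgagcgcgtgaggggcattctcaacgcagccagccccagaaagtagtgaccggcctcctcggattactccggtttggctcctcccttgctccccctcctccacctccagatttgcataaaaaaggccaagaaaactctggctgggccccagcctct
Dkk2: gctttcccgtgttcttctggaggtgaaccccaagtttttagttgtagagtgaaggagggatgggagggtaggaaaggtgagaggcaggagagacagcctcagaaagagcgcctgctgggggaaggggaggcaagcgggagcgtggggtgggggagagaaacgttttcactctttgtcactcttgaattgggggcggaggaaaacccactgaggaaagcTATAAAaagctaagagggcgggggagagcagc
Motifs were searched on both strands: TGGGTGGTC, to which the hedgehog effectors of the Gli family bind, CTTTGAT, the core bound by Tcf and Lef factors of the Wnt pathway, CAGCTG, an E-box used by muscle regulators, and TATAAA, the TATA box. The capitals in the Dkk2 run are a TATA box that begins 32 bases before the start, and those in the Wif1 run are the same motif on the opposite strand, 232 bases before the start. The Sfrp2 run held 0 matches and that of Frzb 1 CAGCTG, no window held 2 matches that could overlap, and neither the Gli motif nor the Tcf and Lef core was found in the 4 windows. Over 32851 windows of this length, 0.225% held the Gli motif, 3.21% the Tcf and Lef core, 13% the E-box and 12.4% the TATA box. A match is a description of letters, and the absence of one says nothing about a factor.

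Values are deposited log2 intensities. Array medians were 5.041 to 5.105 in muscle and 5.41 to 5.438 in tumor, so tumor and muscle were compared after each array's median had been subtracted. In the tumor data, the mean over the 3 populations of a repeat was equal for every repeat at every probe set (largest range 7.67e-05), so variation common to a tumor's populations is absent from the deposited values and p-values tend to be too small. Adjusted p-values are from limma with Benjamini-Hochberg adjustment over 16011 genes, and a difference was called when its adjusted p was under 0.05. The arrays of a group correlated at 0.973 to 0.99. As a check of the sorts, the mean level of 12 blood endothelial markers was 10.4 to 10.6 in muscle Tom+ cells, 10.5 to 11.1 in Tom+/Pecam1+ tumor cells and 6.09 to 7.26 in the other groups. The mean of 11 fibroblast markers was 10.2 to 10.4 in muscle Tom- cells, 10.5 to 10.6 in Tom-/Pecam1- and 9.89 to 10.5 in Tom+/Pecam1- tumor cells, against 5.51 to 7.12 in the 2 groups rich in endothelial markers. Markers of salivary gland, which lies beside this muscle, averaged 5.81 to 8.36 in muscle repeats 1 and 2 and 4.26 to 4.56 in muscle repeat 3 and the tumors. In sorted populations, fewer cells of a type and less RNA per cell cannot be told apart.

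**Figure D1:**
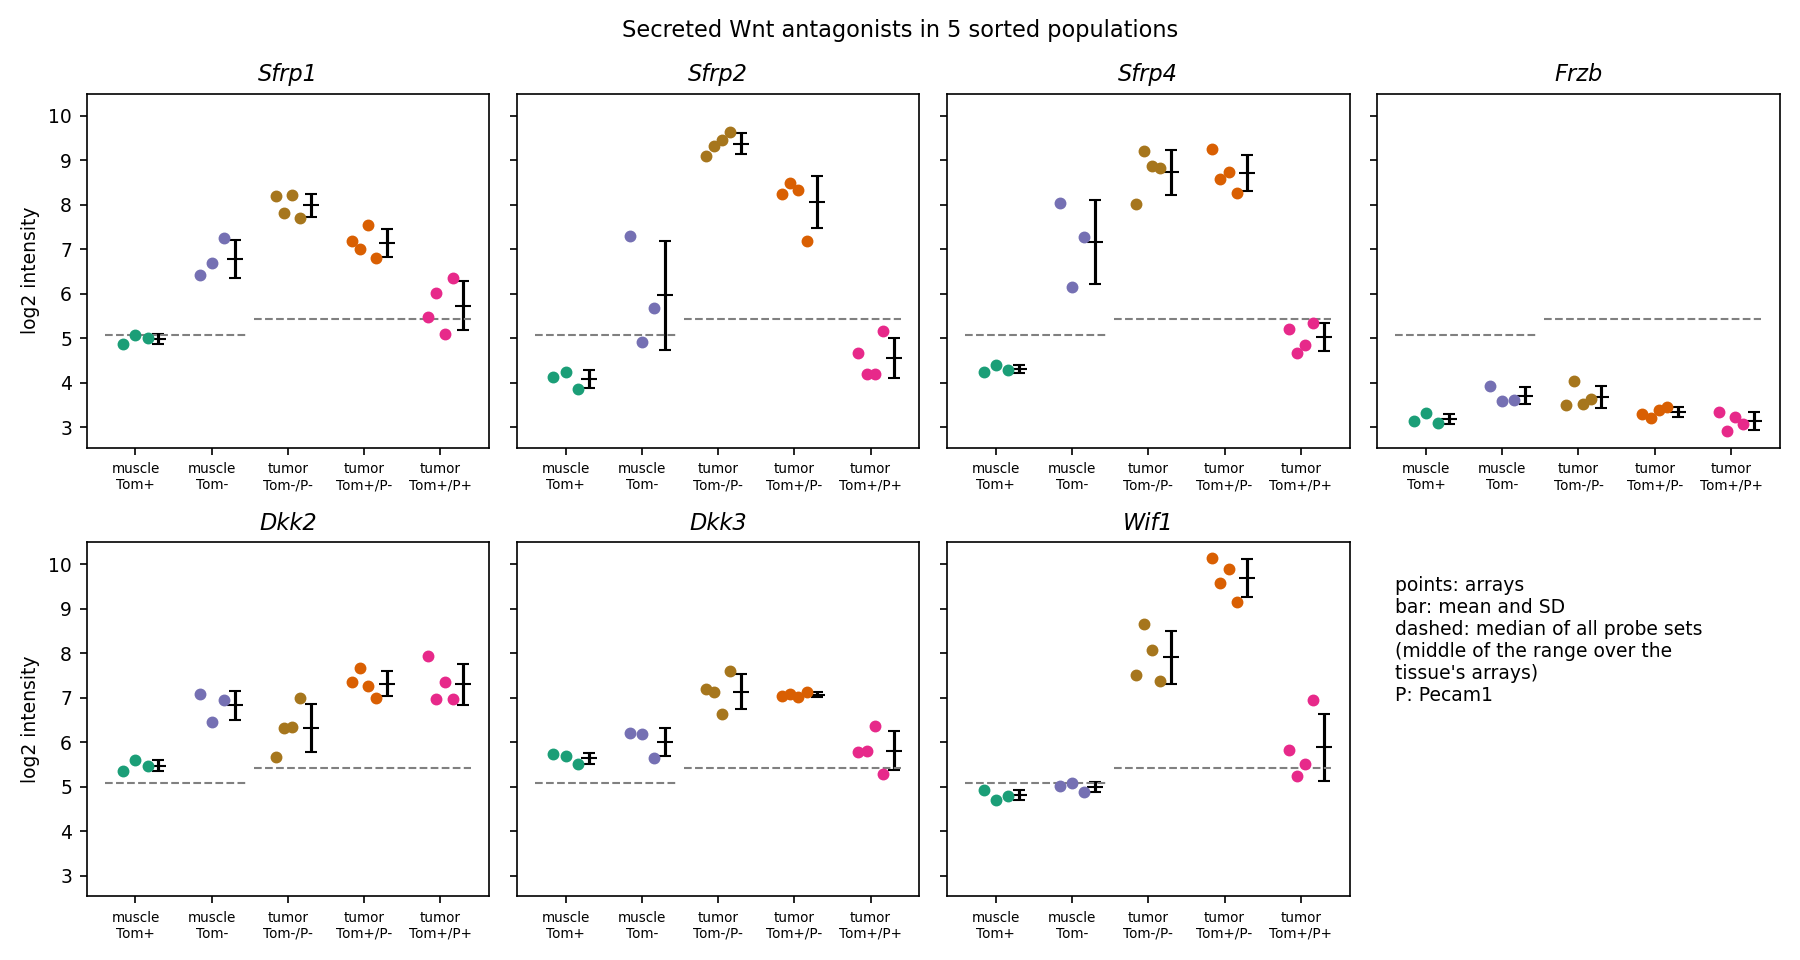
Log2 intensity (y axis) of each member in the 5 sorted populations (x axis), 1 point per array, with the mean and SD beside them and the median of all probe sets dashed. Wif1 has its highest means in the Pecam1-negative tumor cells (9.68 and 7.90), Sfrp2 and Sfrp4 drop below it in Tom+/Pecam1+ tumor cells (4.55 and 5.02), and Frzb stays below it on every array.

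Wif1 stood at or below the array median in normal muscle and far above it in Pecam1-negative tumor cells. Its log2 intensities were 4.93, 4.71 and 4.79 in muscle Tom+ repeats 1 to 3 and 5.004, 5.08 and 4.88 in muscle Tom- repeats 1 to 3. In tumor repeats 1 to 4 they were 7.502, 8.66, 8.07 and 7.37 in Tom-/Pecam1- cells and 10.13, 9.57, 9.88 and 9.14 in Tom+/Pecam1- cells. In Tom+/Pecam1+ cells they were 5.83, 5.24, 5.51 and 6.95, the last from the day 38 tumor. On that array the means of leukocyte (6.93), macrophage (6.87), myogenic (6.02), fibroblast (7.12), tenocyte (5.58), chondrocyte (5.49) and Schwann cell (5.78) markers were the highest of this population and that of endothelial markers (10.54) the lowest, and their part in the value was not tested. Each Tom+/Pecam1- array was above each Tom-/Pecam1- array, and each of these above each Tom+/Pecam1+ array. Below them the order was Tom+/Pecam1+ tumor, muscle Tom- and muscle Tom+, and neighbours among these 3 groups did not differ beyond their spread (adjusted p = 0.187 and 0.75).

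Sfrp1, which carries a Frizzled-like domain that binds Wnt proteins, was highest in Tom-/Pecam1- tumor cells. Its values were 8.19, 7.82, 8.21 and 7.70 there, 7.19, 7.01, 7.54 and 6.81 in Tom+/Pecam1- cells and 5.46, 6.01, 5.10 and 6.34 in Tom+/Pecam1+ cells (repeats 1 to 4). Muscle gave 4.86, 5.08 and 4.997 in Tom+ cells and 6.41, 6.68 and 7.25 in Tom- cells. No pair of populations of the same tissue overlapped. On centred values the level of Tom+/Pecam1- tumor cells could not be separated from that of muscle Tom- cells (adjusted p = 0.949), nor that of Tom+/Pecam1+ tumor cells from muscle Tom+ cells (adjusted p = 0.26).

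Sfrp2 spanned a wider range than Sfrp1. In Tom-/Pecam1- tumor cells the values were 9.08, 9.31, 9.46 and 9.64, in Tom+/Pecam1- cells 8.24, 8.48, 8.32 and 7.19, and in Tom+/Pecam1+ cells 4.66, 4.19, 4.20 and 5.15. Muscle gave 4.12, 4.24 and 3.85 in Tom+ cells and 7.30, 4.91 and 5.67 in Tom- cells. The low Tom+/Pecam1- value and the high Tom+/Pecam1+ value were both from the day 38 tumor, whose 3 deposited values are tied to the same mean as those of the other tumors. Muscle Tom- repeat 1, at 7.30, is also the array with the highest salivary gland mean (8.36), and the part of those cells in it was not tested. The gene's other probe set gave a flatter profile, with means of 4.96 and 6.02 in muscle Tom+ and Tom- cells and 7.39, 6.69 and 6.16 in Tom-/Pecam1-, Tom+/Pecam1- and Tom+/Pecam1+ tumor cells.

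Sfrp4 did not separate the Pecam1-negative tumor populations. It stood at 8.005, 9.20, 8.86 and 8.83 in Tom-/Pecam1- cells and at 9.24, 8.57, 8.73 and 8.27 in Tom+/Pecam1- cells, and these ranges overlapped. Tom+/Pecam1+ cells had 5.20, 4.67, 4.85 and 5.35. In muscle the values were 4.24, 4.398 and 4.28 in Tom+ cells and 8.03, 6.15 and 7.28 in Tom- cells, again highest in repeat 1. The lower 2 levels, Tom+/Pecam1+ tumor and muscle Tom+ cells, did not differ beyond their spread (adjusted p = 0.46).

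Frzb, the remaining frizzled-related member, ranged from 2.90 to 4.04 over the 18 arrays. That placed it between the 5.97th and the 29.8th percentile of its array, and no array reached the 40th percentile used as the minimum. Its highest group means were 3.71 ± 0.19 (SD, n = 3) in muscle Tom- and 3.67 ± 0.25 (SD, n = 4) in Tom-/Pecam1- tumor cells. A level this dim gives no comparison.

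Dkk2 departed from the frizzled-related members in the tumor. Its values were 5.66, 6.31, 6.33 and 6.99 in Tom-/Pecam1- cells, 7.35, 7.67, 7.26 and 6.99 in Tom+/Pecam1- cells and 7.93, 6.96, 7.35 and 6.96 in Tom+/Pecam1+ cells. In the day 38 tumor the 3 populations were alike, at 6.99, 6.99 and 6.96, so the Tom-/Pecam1- range touched both others only through that tumor. Muscle gave 5.34, 5.59 and 5.46 in Tom+ cells and 7.08, 6.45 and 6.95 in Tom- cells, which did not overlap. The upper 3 groups, both Tom+ tumor populations and muscle Tom- cells, did not differ from their neighbours beyond their spread (adjusted p = 0.963 and 0.713).

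Dkk3 was about equal in both Pecam1-negative tumor populations. Tom-/Pecam1- cells had 7.20, 7.12, 6.63 and 7.59, Tom+/Pecam1- cells 7.04, 7.08, 7.01 and 7.13, and Tom+/Pecam1+ cells 5.77, 5.81, 6.36 and 5.29. Muscle Tom+ cells had 5.72, 5.68 and 5.50 and muscle Tom- cells 6.20, 6.17 and 5.64, with overlapping ranges. Its spread in Tom+/Pecam1- cells (SD 0.050) was the smallest of any member in any tumor population.

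The first comparison asked how cells with the aP2-Cre mark differ from the rest of normal muscle, and 4 of the 6 tested members were lower in Tom+ cells and none was higher. Over all genes tested 20.5% were lower, 19.1% higher and 39.7% were called in either direction. The median of the members was -1.58, against -0.0022 over all genes. Sfrp4 was lower by a factor of 7.19 (log2 difference -2.85, 95% interval -3.63 to -2.06, adjusted p = 7.28e-06). Sfrp1 was 3.48-fold lower (-1.80, interval -2.38 to -1.22, adjusted p = 4.36e-05). Sfrp2 differed by -1.89 (interval -2.83 to -0.95, adjusted p = 0.00244) and by -1.22 without muscle Tom- repeat 1 (adjusted p = 0.0116). Dkk2 was 2.56-fold lower (-1.36, interval -1.97 to -0.75, adjusted p = 0.00102). Dkk3 (-0.37, interval -0.86 to 0.13, adjusted p = 0.239) and Wif1 (-0.18, interval -0.96 to 0.60, adjusted p = 0.75) were not called. With the arrays of repeat 3 alone, where salivary markers were low, Dkk2 differed by -1.49. That setting leaves a single array per muscle population and no spread within muscle, so its differences are given without tests. All 4 calls held with the repeat number as a block. Fibroblast markers moved with the members in the same direction, with the means given above. So did myogenic markers (5.02 to 5.34 in Tom+ and 7.98 to 8.29 in Tom- cells) and tenocyte markers (4.64 to 4.84 and 7.74 to 8.64). Schwann cell, pericyte, leukocyte, macrophage, neutrophil, mast cell and chondrocyte markers were lower in Tom+ cells too. Blood endothelial markers ran the other way, and the salivary gland ranges overlapped. The part of these cell types in the differences was not tested.

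Within tumors, the Tom mark in Pecam1-negative cells split the members into opposite directions. Of the 6 tested, 2 were higher and 2 lower in Tom+/Pecam1- than in Tom-/Pecam1- cells, against 25.4% of all genes called (13.4% higher and 12% lower). Wif1 was 3.44-fold higher (log2 difference 1.78, interval 1.105 to 2.457, adjusted p = 0.000651, and 0.00851 with the repeat number as a fixed block). Dkk2 was 1.99-fold higher (0.99, interval 0.465 to 1.52, adjusted p = 0.0072, and 0.0384 with the block). Sfrp1 differed by -0.84 (interval -1.35 to -0.34, adjusted p = 0.0151) and Sfrp2 by -1.31 (interval -2.13 to -0.50, adjusted p = 0.0187). Sfrp4 (-0.020, interval -0.70 to 0.66, adjusted p = 0.975) and Dkk3 (-0.069, interval -0.50 to 0.36, adjusted p = 0.85) were not called.

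Both lower calls of the frizzled-related members were lost without single arrays, while those of Wif1 and Dkk2 held without any one array, the Dkk2 call being lost only when at least a 2-fold change was required. The Sfrp1 call was lost with the fixed block (adjusted p = 0.0507), without Tom+/Pecam1- repeat 4 (-0.73, adjusted p = 0.0503) and without Tom-/Pecam1- repeat 1 (-0.77, adjusted p = 0.0511). The Sfrp2 call was lost without Tom+/Pecam1- repeat 4 (-1.02, adjusted p = 0.068), with day 48 tumors alone (-0.94, adjusted p = 0.105) and with the repeat number as a random block (adjusted p = 0.0704). With day 48 tumors alone Wif1, Dkk2 and Sfrp1 kept their calls. Several marker lists were lower in Tom+/Pecam1- cells, the direction of Sfrp1 and Sfrp2. Leukocyte markers averaged 8.67 to 9.80 in Tom-/Pecam1- and 7.08 to 7.51 in Tom+/Pecam1- cells, macrophage markers 9.38 to 10.2 and 8.01 to 8.43, and tenocyte markers 9.04 to 9.49 and 6.89 to 7.73. Neutrophil markers were at 8.45 to 9.60 and 4.62 to 5.35, and mast cell markers at 6.46 to 7.28 and 3.57 to 4.06, with 5 of 6 of the latter under the 40th percentile on each Tom+/Pecam1- array. The mean of 10 myogenic markers was higher in Tom+/Pecam1- cells, the direction of Wif1 and Dkk2, 6.66 to 7.66 against 8.31 to 8.69. The part of these cell types in the differences was not tested.

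**Figure D2:**
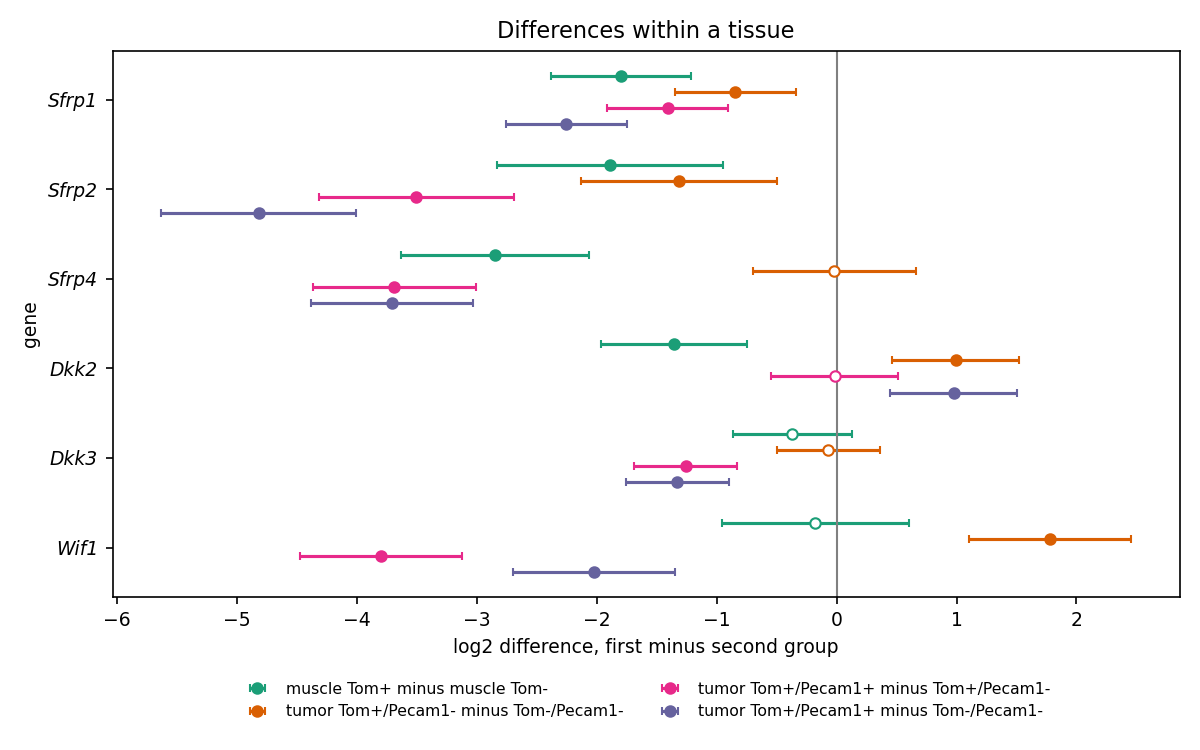
Log2 differences (x axis) of the 6 tested members (y axis) in the muscle comparison and the 3 tumor comparisons, as points with 95% intervals. Filled points have an adjusted p under 0.05. Only Dkk2 and Wif1 lie to the right of 0 for Tom+/Pecam1- minus Tom-/Pecam1- tumor cells (0.99 and 1.78), and Dkk2 alone is not lower in Tom+/Pecam1+ cells.

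Marked tumor cells with Pecam1 were compared with those without it. Tom+/Pecam1+ cells had lower levels of 5 of the 6 members, where 23.6% of all genes were lower and 44.6% called in either direction. Wif1 was 13.9-fold lower (log2 difference -3.80, interval -4.48 to -3.12, adjusted p = 2.77e-08), Sfrp4 12.9-fold (-3.69, adjusted p = 4.43e-08) and Sfrp2 11.4-fold (-3.505, adjusted p = 7.96e-07). Averaging the probe sets of Sfrp2 gave -2.02. Sfrp1 was 2.66-fold lower (-1.41, adjusted p = 0.00011) and Dkk3 2.39-fold (-1.26, adjusted p = 6.8e-05). Dkk2 differed by -0.017 (interval -0.54 to 0.51, adjusted p = 0.963). Marker lists moved with these differences. Against Tom+/Pecam1- cells, Tom+/Pecam1+ cells had fibroblast markers at 6.57 to 7.12 and not 9.89 to 10.5, myogenic markers at 5.30 to 6.02 and not 8.31 to 8.69, pericyte and smooth muscle markers at 7.38 to 7.76 and not 9.50 to 9.72, and macrophage markers at 5.89 to 6.87 and not 8.01 to 8.43. Their part in the differences was not tested.

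Against Tom-/Pecam1- cells, which share neither mark, the same Tom+/Pecam1+ arrays gave 5 lower members and 1 higher, with 21.2% of all genes lower and 41.7% called. Sfrp2 was 28.2-fold lower (-4.82, interval -5.63 to -4.00, adjusted p = 1.68e-08), or -3.02 as the mean of its probe sets, which is narrower than the Sfrp4 difference. On 3 of the 4 Tom+/Pecam1+ arrays Sfrp2 was under the 40th percentile (27.4 to 36.9), so its fold is against a dim level. Sfrp4 differed by -3.71, Sfrp1 by -2.25, Wif1 by -2.02 and Dkk3 by -1.33 (adjusted p = 4.68e-08, 5.8e-07, 5.95e-05 and 4.16e-05). Dkk2 was 1.97-fold higher (0.97, interval 0.45 to 1.502, adjusted p = 0.00433). This comparison shares its arrays with the preceding ones, so the values stand side by side without being separate evidence.

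Next, the tumor populations were compared with unmarked muscle cells on centred values. In Tom-/Pecam1- tumor cells 5 members were higher and 1 lower than in muscle Tom- cells, while 48.7% of all genes were called, 23.8% higher and 24.9% lower. Sfrp2 was 8.42-fold higher (log2 difference 3.07, interval 2.20 to 3.95, adjusted p = 1.52e-05) and Wif1 5.96-fold (2.58, interval 1.85 to 3.30, adjusted p = 1.33e-05). Dkk3 was higher by 0.79 (adjusted p = 0.00619), Sfrp4 by 1.23 (adjusted p = 0.00794) and Sfrp1 by 0.87 (adjusted p = 0.0111), whereas Dkk2 differed by -0.84 (adjusted p = 0.0181). With muscle repeat 3 alone, a single muscle Tom- array, the differences were 0.37 for Sfrp1, 1.08 for Sfrp4 and -0.99 for Dkk2. The Sfrp1 call was lost without muscle Tom- repeat 1 (0.68, adjusted p = 0.0677), and that of Sfrp4 without muscle Tom- repeat 2 (0.72, adjusted p = 0.0678). The Dkk2 call was lost without muscle Tom- repeat 1 or 3 or Tom-/Pecam1- repeat 1 (adjusted p = 0.0768, 0.0657 and 0.0632) and on uncentred values (-0.50, adjusted p = 0.12). Marker levels in this comparison are uncentred. Leukocyte markers were at 8.67 to 9.80 in Tom-/Pecam1- tumor and 6.89 to 7.13 in muscle Tom- cells, and macrophage markers at 9.38 to 10.2 and 6.73 to 7.03. Neutrophil markers were at 8.45 to 9.60 and 5.88 to 6.70, and tenocyte markers at 9.04 to 9.49 and 7.74 to 8.64. Mast cell, chondrocyte and fibroblast markers were higher in the tumor cells too. Myogenic markers ran the other way, at 6.66 to 7.66 and 7.98 to 8.29. Pericyte, Schwann cell, blood endothelial and salivary gland markers were also lower in the tumor cells. The part of these cell types in the differences was not tested.

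For Tom+/Pecam1- tumor cells against muscle Tom- cells, 4 of 6 members were higher and none lower, with 47.1% of all genes called, 24.1% higher and 23% lower. Wif1 was 20.5-fold higher (4.36, interval 3.63 to 5.09, adjusted p = 3.58e-08), the widest gap to muscle Tom- cells among the members. Sfrp2 was 3.40-fold higher (1.76, interval 0.89 to 2.64, adjusted p = 0.00232, and 1.05 as the mean of its probe sets). Sfrp4 was higher by 1.22 (adjusted p = 0.00896), by 0.70 without muscle Tom- repeat 2 (adjusted p = 0.075) and by 1.06 with muscle repeat 3 alone. Dkk3 was higher by 0.73 (adjusted p = 0.011) and by 0.56 without muscle Tom- repeat 3 (adjusted p = 0.0702). Sfrp1 (0.025, interval -0.52 to 0.57) and Dkk2 (0.16, interval -0.42 to 0.74) were not called. On uncentred values macrophage markers (8.01 to 8.43 against 6.73 to 7.03), chondrocyte and myogenic markers were higher in the tumor cells. Tenocyte markers (6.89 to 7.73 against 7.74 to 8.64) were lower. So were pericyte, Schwann cell, neutrophil, mast cell, blood endothelial and salivary gland markers, and fibroblast and leukocyte ranges overlapped. The part of these cell types in the differences was not tested.

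Tom+/Pecam1+ tumor cells were lower than muscle Tom- cells in 4 of 6 members, with 56.5% of all genes called, 27.5% higher and 29% lower. Sfrp4 was 5.58-fold lower (-2.48, adjusted p = 1.31e-05), Sfrp1 2.63-fold (-1.40, adjusted p = 0.000217) and Sfrp2 3.37-fold (-1.75, adjusted p = 0.00179, and -1.08 without muscle Tom- repeat 1). The Dkk3 difference of -0.54 (adjusted p = 0.0423) did not survive many changes, among them uncentred values (-0.20, adjusted p = 0.447) and the omission of any one of muscle Tom- repeats 1 and 2 and Tom+/Pecam1+ repeats 1, 2 and 4 (adjusted p = 0.144, 0.129, 0.0711, 0.0668 and 0.138). Wif1 (0.55, adjusted p = 0.187) and Dkk2 (0.13, adjusted p = 0.713) were not called, though Wif1 was on uncentred values (0.89, adjusted p = 0.0316). Uncentred fibroblast markers were at 6.57 to 7.12 in the tumor and 10.2 to 10.4 in the muscle cells. Myogenic, tenocyte, pericyte, Schwann cell, neutrophil, mast cell and salivary gland markers were lower too. Blood endothelial markers were higher, and leukocyte, macrophage and chondrocyte ranges overlapped. The part of these cell types in the differences was not tested.

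Marked cells of tumor and muscle were compared last, and between the populations rich in endothelial markers a single member was called. Of the 6 members only Dkk2 was called in Tom+/Pecam1+ tumor cells against muscle Tom+ cells, while 34.2% of all genes were called, 15.7% higher and 18.5% lower. Dkk2 was 2.78-fold higher (log2 difference 1.48, interval 0.90 to 2.06, adjusted p = 0.000587). The other differences were 0.72 for Wif1 (interval -0.010 to 1.445), 0.39 for Sfrp1 (interval -0.15 to 0.94), 0.36 for Sfrp4 (interval -0.38 to 1.10), 0.13 for Sfrp2 (interval -0.75 to 1.01) and -0.18 for Dkk3 (interval -0.64 to 0.28). The other probe set of Sfrp2, not tested by itself, averaged 6.16 in Tom+/Pecam1+ tumor and 4.96 in muscle Tom+ cells before centring. On uncentred values Wif1 (1.07, adjusted p = 0.0156) and Sfrp1 (0.75, adjusted p = 0.0222) were called as well, and of all genes called 7642 were higher and 802 lower, against 2513 and 2969 on centred values.

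In Tom+/Pecam1- tumor cells, all 6 tested members were higher than in muscle Tom+ cells, where 29.5% of all genes were higher and 58.8% called. The differences were 4.53 for Wif1, 4.06 for Sfrp4, 3.64 for Sfrp2, 1.81 for Sfrp1, 1.51 for Dkk2 and 1.09 for Dkk3 (adjusted p = 6e-09 to 0.000368). Tom-/Pecam1- tumor cells were higher than muscle Tom+ cells in 5 of 6, with 28.5% of all genes higher, 29.6% lower and 58.1% called. Sfrp2 differed by 4.95 (adjusted p = 2.52e-08), or by 3.52 as the mean of its probe sets, and Sfrp4 by 4.07. In muscle Tom+ cells both were under the 40th percentile of their arrays (28.2 to 37.4), so these differences, and those of the same genes above, are against dim levels. Dkk2 was not called (0.51, interval -0.068 to 1.09, adjusted p = 0.121) except without Tom-/Pecam1- repeat 1 (0.73, adjusted p = 0.0236) and on uncentred values (0.86, adjusted p = 0.0103). Fibroblast, myogenic, tenocyte, pericyte, Schwann cell, leukocyte, macrophage, neutrophil and chondrocyte markers were higher in both tumor populations on uncentred values. Mast cell markers were higher only in Tom-/Pecam1- cells, blood endothelial markers were lower in both, and the salivary gland ranges overlapped. The part of these cell types in the differences was not tested.

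**Figure D3:**
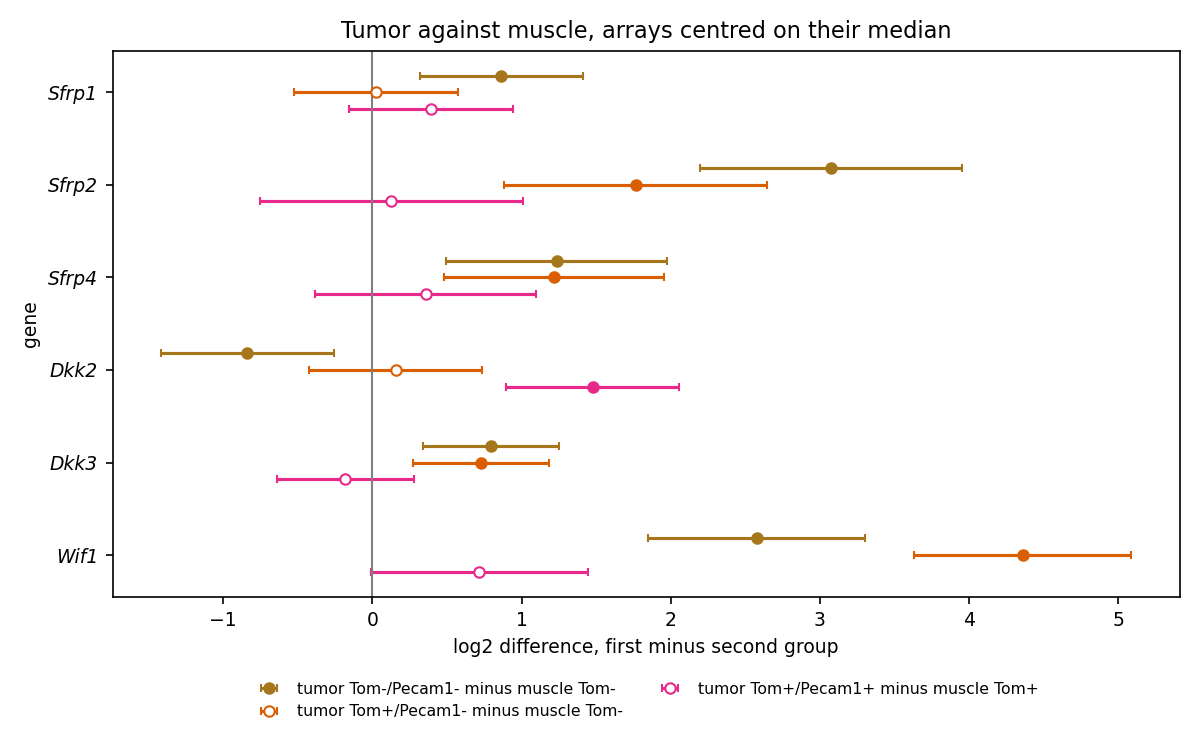
Log2 differences between tumor and muscle populations (x axis) of the 6 tested members (y axis), on arrays centred on their median, as points with 95% intervals. Filled points have an adjusted p under 0.05. Wif1 reaches 4.36 in Tom+/Pecam1- tumor cells against muscle Tom- cells, and in Tom+/Pecam1+ tumor against muscle Tom+ cells only Dkk2 (1.48) is filled.

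Whether the Tom mark goes with the same difference in both tissues was tested as the Tom+ minus Tom- difference in Pecam1-negative tumor cells minus that in muscle. The muscle cells were not depleted of Pecam1-positive cells, so these sorts are not the same. The term was positive for 4 of the 6 members and negative for none, with 39.5% of all genes called and 20.9% positive and 18.5% negative. Sfrp4 had 2.83 (interval 1.79 to 3.865, adjusted p = 0.000187), from -2.85 in muscle and -0.020 in tumor. Dkk2 had 2.35 (interval 1.545 to 3.16, adjusted p = 9.56e-05), from -1.36 in muscle and 0.99 in tumor, so the direction turned. Wif1 had 1.96 (interval 0.93 to 2.99, adjusted p = 0.00408), and 1.87 with muscle repeat 3 alone, a single array per muscle population. Sfrp1 had 0.95 (adjusted p = 0.0469), a call lost with the fixed repeat block (adjusted p = 0.1) and without any one of 10 arrays (0.72 to 1.00, adjusted p = 0.055 to 0.142), namely the 3 muscle Tom+ arrays, muscle Tom- repeats 2 and 3, Tom+/Pecam1- repeats 1 to 3 and Tom-/Pecam1- repeats 2 and 4. Sfrp2 (0.58, interval -0.67 to 1.82, adjusted p = 0.475) and Dkk3 (0.30, interval -0.36 to 0.96, adjusted p = 0.48) were not called.

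Other genes of the pathway were counted from lists that partly overlap. Among 14 further inhibitors tested, 4 were higher and 1 lower in Tom+/Pecam1- than in Tom-/Pecam1- tumor cells, against 13.4% and 12% of all genes, with a list median of 0.16 against 0.028 over all genes. Sostdc1, which like Dkk2 binds Wnt coreceptors, stood at 9.45 ± 0.56 and 7.01 ± 0.78 in these populations (SD, n = 4, difference 2.44, adjusted p = 0.000191). Kremen1, a Dickkopf receptor, was higher by 1.07 (adjusted p = 0.000149), Znrf3, a ligase that removes Frizzled receptors, by 0.85 and Igfbp4, a secreted binding protein, by 0.57. The frizzled-related gene Sfrp5 was lower (-0.39, adjusted p = 0.0332), a call lost with the fixed block (adjusted p = 0.106) and without any one of 5 arrays (adjusted p = 0.0578 to 0.121). Its Tom+/Pecam1- mean of 4.58 is under the 40th percentile of the tumor arrays (4.798 to 4.877). In muscle 6 of these 14 were lower in Tom+ cells and none higher, against 20.5% and 19.1% of all genes. They were led by Sfrp5 (-2.44, adjusted p = 6.03e-10), whose Tom+ mean of 4.13 is under the 40th percentile. Znrf3, Apcdd1 and Kremen1 differed by -1.11, -1.515 and -1.10, and the latter pair by -1.04 and -0.86 in repeat 3 alone.

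Of 14 Wnt ligands tested, 3 were higher in Tom+/Pecam1- than in Tom-/Pecam1- tumor cells and none lower, where 13.4% of all genes were higher and 25.4% called. They were Wnt2b (1.64, adjusted p = 0.000125), Wnt5a (1.54, adjusted p = 7.72e-05) and Wnt9a (0.58, adjusted p = 0.000414). All 3 were lower in Tom+/Pecam1+ than in Tom+/Pecam1- cells (-2.12, -3.10 and -0.80). The Wnt5a mean of 4.21 in Tom+/Pecam1+ cells is under the 40th percentile of the tumor arrays (4.798 to 4.877), so its difference is against a dim level. The single ligand called in muscle, Wnt3a, averaged 3.55 and 3.27 in Tom+ and Tom- cells, below the 40th percentile of the muscle arrays (4.469 to 4.545), and lost its call with the repeat block (adjusted p = 0.114), so it gives no comparison. Of the 15 receptors, 7 were higher and none lower with the Tom mark in Pecam1-negative tumor cells, against 13.4% higher and 12% lower over all genes, led by the receptor-like pseudokinase Ptk7 (0.67) and by Fzd3 (1.00). In Tom+/Pecam1+ cells 3 receptors were higher than in Tom+/Pecam1- cells and 10 lower, against 21% and 23.6% of all genes. Fzd6 (2.39), Fzd4 (1.66) and Lrp5 (0.57) were the higher ones, and Ror1 (-2.88) and Fzd1 (-2.28) the lower ones with the smallest adjusted p. Ror1 averaged 4.645 in Tom+/Pecam1+ cells, also under the 40th percentile of the tumor arrays. In muscle 7 of the 15 receptors were lower and 3 higher in Tom+ than in Tom- cells, against 20.5% and 19.1% of all genes. Those with the smallest adjusted p among the lower ones were Ror1 (-2.815), Fzd1 (-0.95), Fzd7 (-1.23) and Fzd2 (-0.93), and the higher ones were Fzd6 (2.90), Fzd4 (1.32) and Lrp5 (1.27). Fzd2 averaged 3.42 and 4.35 in Tom+ and Tom- cells, also below the 40th percentile of the muscle arrays, so it gives no comparison. With muscle repeat 3 alone its difference was -0.52.

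Agonists and secretion factors, 13 in all, gave 6 higher and 1 lower with the Tom mark in Pecam1-negative tumor cells, 1 higher and 6 lower with it in muscle, and 1 higher and 9 lower in Tom+/Pecam1+ against Tom+/Pecam1- tumor cells. The shares of all genes higher and lower were 13.4% and 12%, 19.1% and 20.5%, and 21% and 23.6%. The 1 lower in the first, Rspo1, lost its call with the fixed and the random block, with day 48 alone (adjusted p = 0.125, 0.0698 and 0.162) and without any one of 6 arrays, namely repeats 2, 3 and 4 of each population. Lgr4, a receptor for R-spondins, was among the genes called each time (1.43, -1.22 and -2.41). Of 16 cytoplasmic and nuclear components, 7 were higher and none lower in Tom+/Pecam1- than in Tom-/Pecam1- cells, among them the transcription factor Lef1 (1.05, adjusted p = 0.00445), Tcf7l2 (0.45) and the beta-catenin cofactor Pygo1 (0.91). Of 12 genes that Wnt signals commonly induce, 3 were higher there, Tnfrsf19 (1.23), Lef1 and Znrf3, and Axin2, a widely used readout of the pathway, was not called (0.16, adjusted p = 0.401).

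Against muscle Tom- cells, 6 of these 12 induced genes were higher and 3 lower in Tom-/Pecam1- tumor cells, where 23.8% of all genes were higher and 24.9% lower. Of the lower ones, Znrf3 and Apcdd1 lost their calls on uncentred values (adjusted p = 0.209 and 0.344). With muscle repeat 3 alone their differences were -0.49 and -0.19. The Apcdd1 call was also lost without muscle Tom- repeat 1 or 2 or Tom-/Pecam1- repeat 2 or 3 (adjusted p = 0.0574 to 0.132). Lef1, one of the higher ones, lost its call without muscle Tom- repeat 1 (0.50, adjusted p = 0.135), muscle Tom- repeat 3 or Tom-/Pecam1- repeat 3 (adjusted p = 0.0516 and 0.0549). Its difference was 0.84 with muscle repeat 3 alone. Notum, also among the higher ones, lost its call as the mean of its probe sets (0.15, adjusted p = 0.274). Its muscle Tom- mean of 4.31 is under the 40th percentile of the muscle arrays. In Tom+/Pecam1- cells 7 were higher and 1 lower, where 24.1% of all genes were higher and 23% lower, and the lower one, Sp5, lost its call on uncentred values (adjusted p = 0.154). Axin2, an inhibitor induced by the signal, was higher by 0.84 and 1.00 in these populations (adjusted p = 9.1e-05 and 1.53e-05). Lgr5, an R-spondin receptor, averaged 6.21 and 6.18 there and 4.04 in muscle Tom- cells, a level under the 40th percentile of the muscle arrays.

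In Tom+/Pecam1+ tumor against muscle Tom+ cells 8 of the 12 were higher and 1, Sp5, lower, where 15.7% of all genes were higher and 18.5% lower. Of the higher ones, Lgr5, Notum and Dkk1 averaged 4.13, 4.45 and 4.46 in muscle Tom+ cells. These levels are under the 40th percentile of the muscle arrays (4.469 to 4.545). On uncentred values 90.5% of all calls in this comparison were higher. Axin2 was higher by 0.85, or by 0.43 as the mean of its probe sets. The Notum call was lost as the mean of its probe sets (adjusted p = 0.59). The Lef1 difference ranged from 0.79 to 1.36 over the alternatives.

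**Figure D4:**
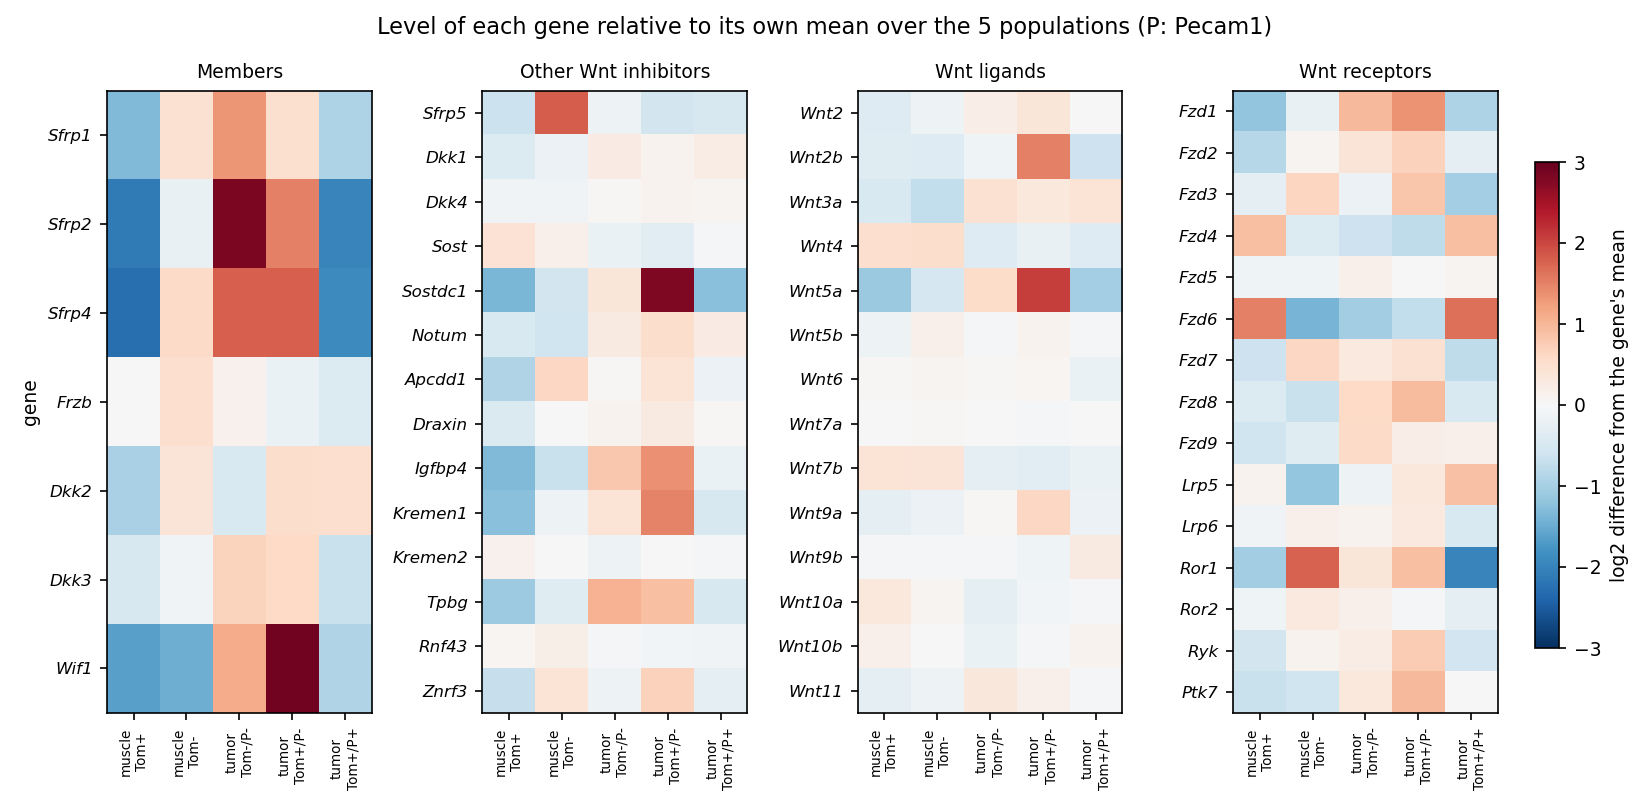
Each gene's mean level in the 5 populations (columns), after subtraction of the tissue's array median and of the gene's own mean over the 5, as a log2 difference (colour), for the members, other tested inhibitors, ligands and receptors (rows). Wif1, Sostdc1, Wnt5a and Wnt2b are most red in Tom+/Pecam1- tumor cells, while Fzd4 and Fzd6 are red in muscle Tom+ and Tom+/Pecam1+ tumor cells.

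Across all 18 arrays the members fell into different profiles, described by Pearson correlations of centred values over arrays that share groups and, in tumor, a removed mean. Sfrp2 and Sfrp4 were the most alike pair (r = 0.945), followed by Sfrp1 with each of them (0.883 and 0.882), and Dkk3 with Sfrp2 (0.842). Dkk2 reached at most 0.237 with any other member, and Wif1 at most 0.767. The genes most like each member were Nnat, Myh3 and Sp7 for Wif1 (r = 0.979, 0.978 and 0.977), where Myh3 is the embryonic myosin heavy chain of muscle and Sp7 a transcription factor of bone formation. For Sfrp2 they were the complement gene C4b, the chemokine gene Ccl7 and the prostaglandin synthase gene Ptgs2 (0.98, 0.979 and 0.977), and for Sfrp4 Ust, Bicc1 and Plod2, a collagen-modifying lysyl hydroxylase (0.984, 0.981 and 0.974). Cpxm2, Ecrg4 and Zfp385a were most like Sfrp1 (0.958, 0.951 and 0.949), and Boc, a hedgehog coreceptor, Aff2 and the metalloproteinase gene Mmp11 most like Dkk3 (0.948, 0.932 and 0.928). Dkk2 had no gene as near, with Lrp4, the basement membrane collagen gene Col18a1 and Dnajc18 at 0.881, 0.856 and 0.83.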

How the data were processed

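RNA from cells sorted by flow cytometry was measured on 18 arrays. The authors deposited log2 intensities for which RMA and Partek are named, without versions, per the submitters' processing notes. Array scans were not used here. Probe sets with 1 gene symbol were kept. Tests covered the genes whose signal passed an array's 40th percentile on 3 or more arrays (16011 of 22180), and 6169 dim genes, Frzb among them, were left out. The number of arrays limits the precision.

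One fit in limma 3.58.1 (R 4.3.3) held 1 mean per sorted population, 13 residual degrees of freedom and two-sided moderated tests with Benjamini-Hochberg adjustment within a comparison. Each comparison between tissues used values minus the array median. Labels call the samples biological repeats. Repeat numbers paired the muscle samples (same-number deviations correlated at 0.271 to 0.31), and in tumor the removed mean makes that check void (-0.717 to -0.173). P-values measure only the spread left in these arrays. Named were all members, up to 4 genes with the smallest adjusted p per pathway list and direction (all where 5 or fewer passed), and the 3 genes most correlated with each member. Axin2 within tumors was named after its values were seen. The members and lists were chosen with earlier results of these data known. The fit was tested on simulated data. Alternatives were other filters, normalizations, variance models, thresholds and probe set rules, the repeat number as a block, and arrays left out. Figures used matplotlib 3.10.9, pandas 2.3.3 and Python 3.11.15.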

Additional observations from a re-analysis of the deposited data

Results flagged for a closer look

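A test of the difference between tissues was called and positive for 4 members, while 39.5% of all genes were called and 20.9% were positive. The term is the Tom+ minus Tom- difference in Pecam1-negative tumor cells minus that in muscle, whose cells were not sorted on Pecam1. On the log2 scale it was 2.83 for Sfrp4, 2.35 for Dkk2, 1.96 for Wif1 and 0.95 for Sfrp1. The Wif1 term was 1.87 with muscle repeat 3 alone, which leaves a single array per muscle population. For Dkk2 the mark went with a lower level in muscle and a higher one in tumor. The Sfrp1 value is the least secure, with an adjusted p from limma of 0.0469 that reached 0.142 without muscle Tom- repeat 3. By Dixon's gap test at the 95% level no array stood apart from the other 3 of a tumor population in any member. The nearest to it was Sfrp2 in Tom+/Pecam1- repeat 4, at 7.19 against 8.24 to 8.48 in the others. Muscle groups of 3 arrays were not examined in this way.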

How the results depend on the processing

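Of the 49 called differences of the members, 35 kept their call under every alternative run, and no called difference turned its direction in 1023 alternatives, of which 963 kept the call and 60 lost it. Losses with muscle repeat 3 alone are in these counts but are not listed. Those other than to a stricter threshold or a 2-fold minimum are in the report, with these exceptions. Sfrp1 in the difference between tissues also lost its call with the random block, no filter and quantile normalization (adjusted p = 0.0867, 0.0589 and 0.0517). Dkk3 in Tom+/Pecam1+ tumor against muscle Tom- cells also lost it with day 48 alone and only the groups compared (adjusted p = 0.0951 and 0.0828). Counts of called genes moved most with the threshold. At least a 2-fold change left 2436 genes in the muscle comparison, 996 for the Tom mark in Pecam1-negative tumor cells, 2291 and 2310 for Tom+/Pecam1+ against Tom+/Pecam1- and Tom-/Pecam1- cells, 1873, 1678 and 2726 for Tom-/Pecam1-, Tom+/Pecam1- and Tom+/Pecam1+ tumor against muscle Tom- cells, 3045, 3074 and 737 for the same against muscle Tom+ cells, and 3189 for the difference between tissues. Called members were then 2 for the Tom mark in tumor and 3 for Tom-/Pecam1- tumor against muscle Tom- cells. An adjusted p of 0.01 left 2440 genes and 2 members for the mark in tumor, and 3309 genes for Tom+/Pecam1+ tumor against muscle Tom+ cells. The fixed replicate block, the paired analysis, left 2693 genes for the mark in tumor against 4065, and beyond the losses named it ended no member's call. Muscle repeat 3 alone left 3629 genes in muscle, 4960 for Tom+/Pecam1- tumor against muscle Tom- cells, 2769 for Tom+/Pecam1+ tumor against muscle Tom+ cells and 3992 for the difference between tissues, with 3 members called for Tom-/Pecam1- tumor against muscle Tom- cells and 2 for the difference. For Tom+/Pecam1+ tumor against muscle Tom+ cells, uncentred values gave 8444 genes and 3 members, and no filter on dim genes gave 2 members, Frzb (-0.39, adjusted p = 0.0321) besides Dkk2. Uncentred values turned the split of calls upward for the other tumor against muscle comparisons too, where 77.4% to 84.2% of calls were higher instead of 48.7% to 51.2%. Leaving out one array at a time gave 2 to 4 called members for the mark in tumor.

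Only uncalled differences changed sign. For the Tom mark in Pecam1-negative tumor cells, day 48 alone gave 0.16 for Sfrp4 and 0.062 for Dkk3, and leaving out single arrays gave -0.26 to 0.14 for Sfrp4 and -0.24 to 0.084 for Dkk3. Dkk2 in Tom+/Pecam1+ against Tom+/Pecam1- cells became 0.021 with array weights, 0.0018 after quantile normalization and -0.23 to 0.10 without single arrays. Against muscle Tom- cells, Sfrp1 in Tom+/Pecam1- tumor cells became -0.47 with muscle repeat 3 alone, -0.041 after quantile normalization and -0.16 to 0.27 without single arrays. There Dkk2 ranged from -0.042 to 0.28 without single arrays, and in Tom+/Pecam1+ cells from -0.086 to 0.25, and it was -0.026 in the latter with muscle repeat 3 alone. Against muscle Tom+ cells, uncentred values gave 0.16 for Frzb in Tom+/Pecam1- and 0.17 for Dkk3 in Tom+/Pecam1+ cells, and Sfrp2 in the latter was -0.069 with day 48 alone and -0.069 to 0.25 without single arrays. Between tissues, Sfrp2 ranged from -0.096 to 1.10 without single arrays. The cause of these changes was not tested. In muscle Tom+ cells Sfrp2 and Sfrp4, and on 3 and 2 of 4 arrays of Tom+/Pecam1+ tumor cells, lay under the 40th percentile, where signal over background limits what a difference can show.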
